A study of Mus musculus with 17 samples.

Results

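The genes described here encode products of the exocrine pancreas: 10 genes, read by 11 of the 20794 probes on a cDNA array, among 9030 genes named on it. They were chosen by their platform symbol from a list of acinar pancreas genes, with their fetal values already known, so their fetal values are given below as a description and carry no test. The array had measured liver RNA of mice labelled AFP1 kO, lacking alpha-fetoprotein (Afp), against pooled wild type liver RNA. Adult mutants were 6 males aged 17 weeks on 11 arrays, set against a pool of 6 males of the same age, and 5 of the 6 were measured in both dye orientations. The fetal mutants were 6 embryos, 3 male and 3 female, on 1 array each with the mutant always in Cy5, against a pool of 4 embryos that the labels call male on 2 arrays and female on 4. The labels give embryonic day 7.5 for the fetal tissue, which is kept here as a label only. Neither the strain nor the promoter or extent of the deletion is stated in the sources used here, and wild-type RNA was present only as these pools.

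Acinar cells of the pancreas make digestive enzymes, mostly as inactive zymogens, and store them in zymogen granules until a meal. Serine proteases of the elastase and chymotrypsin families and the carboxypeptidases cut proteins, lipases with their cofactor colipase cut fats, and a ribonuclease cuts RNA. Transcription of these genes in acinar cells is driven by PTF1, a complex that binds an E-box and a neighbouring TC-box. Hepatocytes are not known as a source of the zymogens, and the pancreas buds from the foregut close to the liver.

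The sequences before the transcription start are shown for Ctrb1, Cela2a and Cpa1, the 3 genes with the lowest fetal ratios, and for Pnliprp2, whose fetal ratios lay above 0. They are the 250 bases before the annotated start, from RefSeq's GRCm38.p6 promoter table, which held 9 of the 10 genes and had no entry for Clps. Capitals mark the E-box motif CANNTG, which reads alike on both strands, and the TC-box motif TTTCCC on either strand (GGGAAA when reversed). The motifs did not overlap each other in these windows. Ctrb1 lies at chr8:111691011-111691260 on the minus strand, Cela2a at chr4:141826006-141826255 on the minus strand, Cpa1 at chr6:30638968-30639217 on the plus strand and Pnliprp2 at chr19:58759473-58759722 on the plus strand.
Ctrb1: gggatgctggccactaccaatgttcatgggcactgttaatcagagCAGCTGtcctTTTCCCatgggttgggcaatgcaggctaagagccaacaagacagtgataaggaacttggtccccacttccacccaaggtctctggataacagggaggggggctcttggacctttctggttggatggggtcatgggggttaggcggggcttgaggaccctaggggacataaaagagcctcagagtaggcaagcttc
Cela2a: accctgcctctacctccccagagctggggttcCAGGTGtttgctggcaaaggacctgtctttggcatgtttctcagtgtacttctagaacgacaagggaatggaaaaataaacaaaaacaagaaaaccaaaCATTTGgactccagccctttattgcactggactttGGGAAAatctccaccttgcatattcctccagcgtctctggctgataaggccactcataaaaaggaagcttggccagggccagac
Cpa1: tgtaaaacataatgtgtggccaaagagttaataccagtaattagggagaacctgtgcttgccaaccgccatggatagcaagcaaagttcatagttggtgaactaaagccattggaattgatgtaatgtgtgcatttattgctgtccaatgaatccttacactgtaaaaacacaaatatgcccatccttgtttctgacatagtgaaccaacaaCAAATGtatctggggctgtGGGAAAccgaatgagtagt
Pnliprp2: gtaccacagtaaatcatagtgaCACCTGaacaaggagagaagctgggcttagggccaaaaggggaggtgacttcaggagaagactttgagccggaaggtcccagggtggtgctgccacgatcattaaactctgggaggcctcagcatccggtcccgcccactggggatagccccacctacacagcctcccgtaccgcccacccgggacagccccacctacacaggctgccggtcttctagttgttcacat

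An E-box match stood before 8 of the 9 genes, against 66.2% of all 32851 promoter windows of this length. The TC-box letters stood before Ctrb1, Cela2a and Cpa1 and before none of the other 6, against 21.9% of all windows. In Ctrb1 the E-box began 205 bases before the start and the TC-box followed it after a gap of 4 bases. In Cpa1 both stood closer to the start, with the E-box beginning 38 bases before it and a gap of 13 bases. Both motifs within a span of 30 bases occurred in these 2 genes and in 3.47% of all windows. These matches are letters in a window and show neither binding nor its absence.

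**Figure D1:**
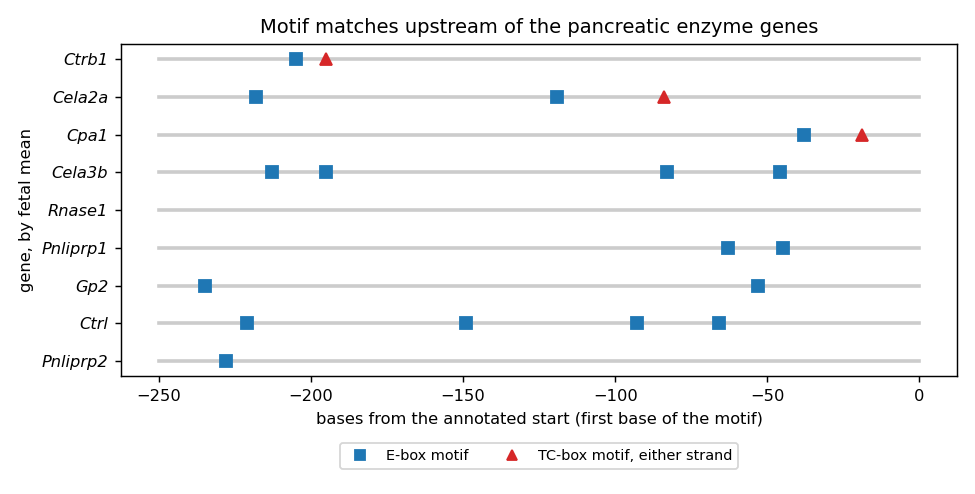
Positions of E-box (blue squares) and TC-box (red triangles, either strand) matches in the 250 bases before the start of 9 genes, ordered from the lowest fetal mean at the top; the x axis is the distance in bases from the annotated start to the first base of the match. The TC-box appears in the top 3 genes only, and Rnase1 has no match of either kind.

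Ratios are given on the log2 scale, mutant over pool, as mean ± SD between animals. A value of -1 means that the mutant signal was at 0.5 of the pool's. The direction, the log base and, for the embryos, the row that holds each probe were inferred from the values. Arrays carried 20078 to 20697 values with medians from -0.11 to 0.09. The fetal value of a probe was read 11 rows below its own row: among 121 offsets, the fetal means of same-gene probes agreed best there (Spearman correlation 0.086 over 4686 pairs of other genes, against 0.066 at the next best offset and -0.0033 as deposited). The correlation of the fetal means with the adult dye profile was also highest there, at 0.382 against 0.162 at the next best offset. Afp, the targeted gene, lay at -8.40 ± 0.23 in the 6 embryos and at -0.03 ± 0.19 in the 6 adults, so the ratio leaves the adult knockout unchecked. A pair of fetal arrays stood apart from the rest. Embryo 5 showed the least agreement of same-gene probes, at a correlation of 0.0054 against 0.071 to 0.122 in the others, and embryo 6 the least of the dye profile described below, at 0.017 against 0.209 to 0.471. Ratios do not give levels, so hepatocyte markers could not be used to check the tissue of either channel.

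In the embryos 4 of the 5 protease genes (Ctrb1, Cela2a, Cpa1 and Cela3b) and the ribonuclease gene Rnase1 lay below the pool. The protease gene Ctrl and Gp2 were near it, the lipase-related Pnliprp1 was below it in 5 of 6 embryos, and Pnliprp2 and Clps were above it. Of the 10 genes, 5 lay below 0 in every embryo with a value and 2 above it in every embryo. Over all 17242 features measured, 7.5% lay below 0 in every embryo and 8.27% above. Since the fetal values chose the genes, nothing is read from these shares. The median of the 10 fetal means was -0.45, against 0.0046 over all features. In RNA of a whole organ, fewer cells of a type and less RNA per cell cannot be told apart. All 6 embryos were set against the same pool of 4 embryos. A trait of that pool would shift all 6 ratios alike and cannot be told apart from one of the mutants.

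Ctrb1, which encodes chymotrypsinogen B, had the lowest mean of the 10. Its ratios in embryos 1 to 6 were -2.88, -2.44, -0.67, -1.78, -2.22 and -1.13, a mean of -1.85 ± 0.83 (SD, n = 6). All 6 embryos lay below 0, embryo 1 furthest and embryo 3 least. At this mean the pool's signal was 3.61 times that of the mutants. Cela2a encodes a pancreatic elastase. It stood at -1.92, -1.56, -1.07, -0.68, -0.98 and -1.60 in embryos 1 to 6, a mean of -1.30 ± 0.46 (n = 6). Embryo 1 was again the lowest and embryo 4 the closest to 0. Cpa1 encodes procarboxypeptidase A1, which trims amino acids from the carboxyl end. Its values were -1.69, -1.34, -0.47, -1.02, -1.44 and -1.03, a mean of -1.17 ± 0.43 (n = 6), with embryo 1 lowest and embryo 3 highest. Only 19 of the 17242 features (0.11%) had a fetal mean at or below -1, and these 3 genes were among them, at places 3, 7 and 13 from the lowest. The genes were chosen with these values known, so nothing is read from their places or from the share. Of those 19 features 10 had a gene name, and Afp and Ctrb1 were the lowest of them.

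Cela3b, a further elastase-family protease, had values in 4 embryos only, -0.31, -0.45, -0.25 and -1.28 in embryos 1 to 4. Its mean of -0.57 ± 0.48 (n = 4) was drawn down by embryo 4, while the 3 males lay close together. Rnase1, the pancreatic ribonuclease, stood at -0.90, -0.36, -0.71, -0.65, -0.56 and -0.17, a mean of -0.56 ± 0.26 (n = 6), with all 6 embryos below 0. The genes below 0 in every embryo were thus Ctrb1, Cela2a, Cpa1, Cela3b and Rnase1. Embryo 1 was the lowest embryo for 4 of these 5 genes, and embryo 3 the highest for 3. The median of the 5 ran from -1.69 in embryo 1 to -0.67 in embryo 3.

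The lipase genes did not share one side of 0. Pnliprp1 encodes a lipase-related protein and was the only gene with 2 probes. Its gene mean was -0.73, -0.40, -0.47, -0.51, 0.21 and -0.14 in embryos 1 to 6, or -0.34 ± 0.33 (n = 6), with embryo 5 above 0. One probe averaged -0.23 ± 0.34 and the other -0.45 ± 0.48, and in embryo 6 they had opposite signs, at 0.20 and -0.48. Pnliprp2, the neighbouring gene on chromosome 19 and a lipase of milk and plant fats, read 0.18, 0.52, 0.25, 0.09, 0.64 and 0.20, a mean of 0.31 ± 0.22 (n = 6), above 0 in all 6. Clps, encoding colipase, read 0.50, 0.24, 0.58, 0.07, 0.25 and 0.44, a mean of 0.35 ± 0.19 (n = 6), also above 0 in all 6. Colipase and chymotrypsinogen B thus stood on opposite sides of the pool in every embryo.

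The other 2 genes lay near 0. Ctrl encodes a chymotrypsin-like protease on the same chromosome as Ctrb1, and its ratios were 0.38, -0.02, -0.34, 0.25, 0.57 and -0.03, a mean of 0.13 ± 0.33 (n = 6), with 3 embryos on each side of 0. Gp2, the main membrane glycoprotein of zymogen granules, read 0.07, -0.30, 0.22, 0.07, 0.18 and 0.22, a mean of 0.08 ± 0.20 (n = 6), with embryo 2 alone below 0. Without embryos 5 and 6 the means were -1.94 for Ctrb1, -1.31 for Cela2a, -1.13 for Cpa1, -0.66 for Rnase1, -0.53 for Pnliprp1, 0.26 for Pnliprp2, 0.35 for Clps, 0.07 for Ctrl and 0.02 for Gp2, and Cela3b had no value in either embryo. Pnliprp1 then lay below 0 in every remaining embryo, so that 6 of the 10 genes did. Leaving out embryos can only raise such a count. The share over all features was not computed for this setting, so nothing is read from the rise.

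**Figure D2:**
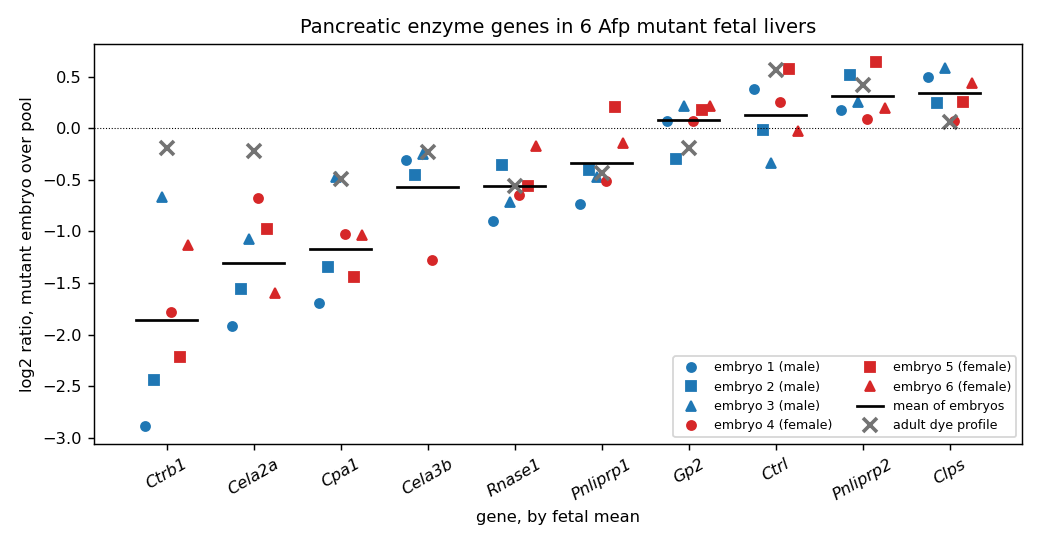
Log2 ratio of mutant over pool for 10 genes in 6 embryos (blue, male; red, female), ordered by their mean (black line), with the adult dye profile as a grey cross; Cela3b has 4 values. Ctrb1, Cela2a and Cpa1 lie below 0 in all 6 embryos, with means of -1.85, -1.30 and -1.17, and Pnliprp2 and Clps above 0 in all 6.

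The genotype and the dye coincide on every fetal array, so the dye profile of each gene was measured in the adults, where RNA of the same animal was hybridised in both orientations. The profile is the ratio with the mutant in Cy5 minus that with the mutant in Cy3, divided by 2, over 5 animals. It is a dye effect only if the columns with the mutant in Cy3 were deposited as mutant over pool, which is assumed here. If they were deposited as pool over mutant, the profile would be the difference between mutant and pool instead. Ctrl had the largest profile of the 10 genes, with 0.71, 0.60, 0.77, 0.68 and 0.04 in animals 1, 2, 3, 4 and 6 (mean 0.56 ± 0.30, n = 5, limma adjusted p = 0.0392). It was above 0 in 5 of 5 animals, as were 14.4% of features, though animal 6 was close to 0. It was the only one of the 10 genes to pass, against 9.09% of the 16396 features tested (8.51% with a profile above 0), and its adjusted p missed the threshold without animal 1, 2, 3 or 4, at 0.0581 to 0.133. Pnliprp2 averaged 0.42 ± 0.19 (n = 5), above 0 in 5 of 5 animals, and did not pass (adjusted p = 0.0642), except without animal 1 (adjusted p = 0.0333).

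For the genes lowest in the embryos the profile was smaller than the fetal ratio. It was -0.19 ± 0.08 (n = 5) for Ctrb1, below 0 in 5 of 5 animals, -0.22 ± 0.46 for Cela2a and -0.49 ± 0.43 for Cpa1, and limma passed none of them (adjusted p = 0.250, 0.419 and 0.113). The Cela2a profile rests on animal 6, at -1.01, and was -0.02 without it. The same adult profile was subtracted from every embryo, and whether it holds for fetal RNA was not tested. Over all placed probes its Spearman correlation with the ratios ran from 0.017 in embryo 6 to 0.471 in embryo 5. With the profile over all 5 animals subtracted, Ctrb1 stood at -1.66, Cela2a at -1.08 and Cpa1 at -0.68. Ctrb1, Cela2a and Cela3b (-0.34) then lay below 0 in every embryo with a value, 3 of the 10 genes against 15.6% of 16440 features. Cpa1 stayed below 0 in 5 of 6 embryos. For Rnase1 the profile was as large as the fetal ratio, -0.56 ± 1.38 (n = 5), and left 0.00063 after subtraction. That profile rests on animal 3, at -2.89, and was 0.023 without it. Pnliprp1 had a profile of -0.43 ± 0.48 and moved to 0.09, and Pnliprp2 moved to -0.10. Ctrl moved from 0.13 to -0.43, below 0 in 5 of 6 embryos. Clps, with a profile of 0.06 ± 0.08, stayed above 0 in 6 of 6 embryos at 0.29, and Gp2 stood at 0.27.

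**Figure D3:**
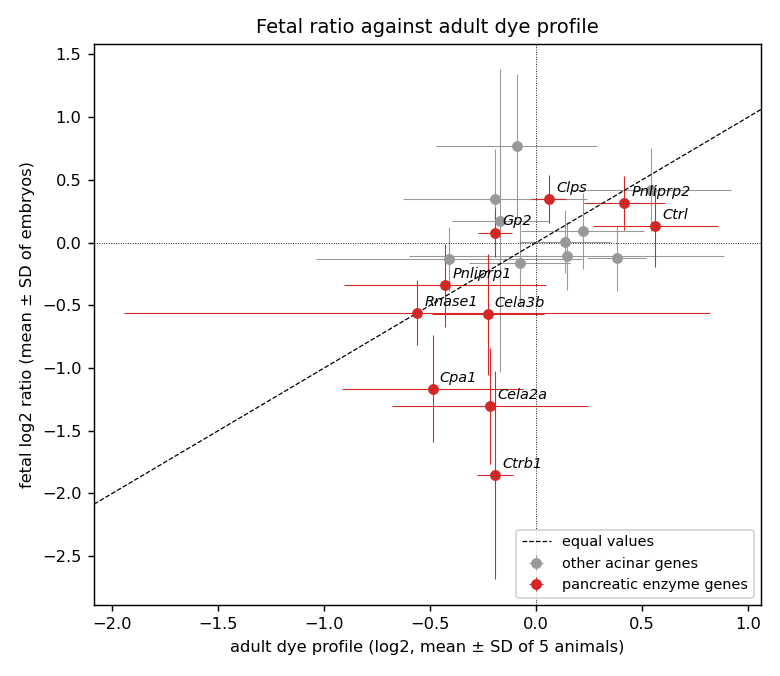
Fetal log2 ratio (y axis, mean ± SD of 4 to 6 embryos) against the adult dye profile (x axis, mean ± SD of 5 animals) for the 10 genes (red) and 10 other acinar genes (grey), with a dashed line where both are equal. Ctrb1, Cela2a and Cpa1 lie far below the line, while Rnase1, Pnliprp1 and Pnliprp2 lie near it.

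In adult mutant liver none of the 10 genes passed the test against the pool, and none lay on one side of 0 in all 6 animals, where 2.89% of features lay below it and 3.44% above. The limma test passed 0 of 17039 features (0%), and 1321 (7.75%) had an unadjusted p under 0.05, none of them among the 10 genes. The median of the 10 adult means was -0.07, against 0.0081 over all features. Arrays of an animal were averaged first. Ctrb1 read -0.01, 0.05, -0.20, -0.38, -0.44 and 0.15 in animals 1 to 6, a mean of -0.14 ± 0.24 (n = 6, limma adjusted p = 0.729), with 4 animals below 0. The 95% interval of the Ctrb1 mean ran from -0.40 to 0.12. Cela2a read -0.08, -0.22, -0.07, 0.01, -0.08 and -0.87, a mean of -0.22 ± 0.33 (n = 6, limma adjusted p = 0.678). Animal 6 stood apart, through its array with the mutant in Cy5 at -1.88, while its other array read 0.14. Cpa1 lay at -0.19, 0.07, 0.12, 0.05, 0.09 and 0.39, a mean of 0.09 ± 0.18 (n = 6, limma adjusted p = 0.799), above 0 in 5 of 6 animals.

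The remaining adult means, with n = 6 each, were -0.0039 ± 0.25 for Cela3b, -0.15 ± 0.55 for Ctrl, -0.05 ± 0.41 for Pnliprp1, 0.30 ± 0.52 for Pnliprp2, -0.10 ± 0.21 for Clps, 0.11 ± 0.88 for Rnase1 and -0.20 ± 0.33 for Gp2, with limma adjusted p from 0.679 to 0.993. Rnase1 was the least steady. Its arrays of animal 3 read -1.60 in the Cy5 orientation and 4.18 in the other, and those of animal 4 read -0.63 and -2.10.

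Split by orientation, the adult arrays ran apart for several genes. With the mutant in Cy5, the layout shared with the embryos, Ctrb1, Cela2a, Pnliprp1 and Gp2 lay below 0 in 6 of 6 animals, against 6.96% of features. Their means were -0.30 ± 0.13, -0.40 ± 0.73, -0.41 ± 0.54 and -0.36 ± 0.34 (n = 6 each), beside fetal means of -1.85, -1.30, -0.34 and 0.08. With the mutant in Cy3 the same genes averaged 0.11 ± 0.29, -0.03 ± 0.23, 0.52 ± 0.50 and 0.02 ± 0.35 (n = 5 each). Neither Pnliprp1 probe alone lay below 0 in every animal with the mutant in Cy5. Probe 8695 read 0.38 in animal 1, and probe 15668 read 0.10, 0.14 and 0.67 in animals 2, 3 and 4. Limma passed none of the 10 genes in Cy5 arrays alone, where 6.55% of features passed. On the Cy3 arrays alone Ctrl passed, at -0.92 ± 0.39 (n = 5, limma adjusted p = 0.0383), where 4.19% of features passed, while on the Cy5 arrays it averaged 0.32 ± 0.45 (n = 6). Ctrl and Pnliprp2 lay below 0 on 5 of 5 Cy3 arrays, against 12.5% of features. Pnliprp2 averaged 0.65 ± 0.47 (n = 6) on the Cy5 arrays and -0.32 ± 0.09 (n = 5) on the Cy3 arrays. With the Cy3 arrays turned in sign, the other possible reading of the deposit, Ctrl averaged 0.61 (limma adjusted p = 0.0206), with 10.4% of features passing, and it was the only one of the 10 genes to pass. Ctrb1, Cela2a and Cpa1 then averaged -0.23, -0.20 and -0.39 (limma adjusted p = 0.144, 0.414 and 0.170). A difference between the ages was not tested, since the fetal values chose the genes.

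**Figure D4:**
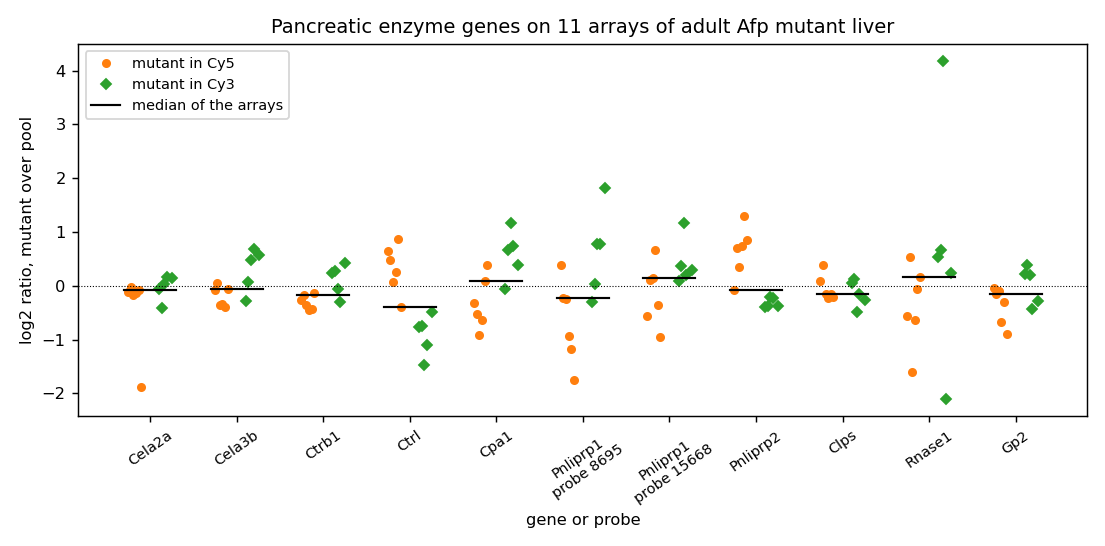
Log2 ratio of mutant over pool on 11 adult arrays for 11 probes of the 10 genes (orange, mutant in Cy5, 6 animals; green, mutant in Cy3, 5 animals), with the median of the arrays as a black line. Ctrl and Pnliprp2 lie below 0 on 5 of 5 Cy3 arrays, against 12.5% of features, and Rnase1 spreads from -2.10 to 4.18.

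Female and male embryos were compared since the labels gave both sexes, although all 3 females had a pool labelled female and 2 of the 3 males a pool labelled male. None of the 9 genes that could be tested passed (lowest limma adjusted p = 0.998), where 2 of 17212 features did (0.0116%), and none of the 9 had an unadjusted p under 0.05, against 3.18% of features. The sexes overlapped for each of the 9, and did not overlap for 9.59% of features. Ctrb1 averaged -1.71 ± 0.55 in females and -2.0 ± 1.17 in males (n = 3 each), and Cpa1 averaged -1.17 ± 0.24 and -1.17 ± 0.63. The largest differences were those of Cela2a, at -1.09 ± 0.47 in females and -1.52 ± 0.43 in males, and of Pnliprp1, at -0.15 ± 0.36 and -0.53 ± 0.17. Cela3b had 1 female value and was not tested.

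Of 40 other acinar genes listed, 10 had a probe. The median of their 10 fetal means was 0.05. None of these genes lay below 0 in every embryo (7.5% of features) and 1 lay above it in every embryo (8.27%). That gene was Spink1, the pancreatic trypsin inhibitor, which is also made outside the pancreas, at 0.77 ± 0.57 (n = 6), and it stayed above 0 in every embryo with the dye profile (-0.09) subtracted. That subtraction also put Pla2g1b above 0 in 6 of 6 embryos, at 0.28, and Cuzd1 below 0 in 6 of 6, at -0.51. After it 16.5% of features lay above 0 in every embryo and 15.6% below. Without it, other secreted acinar products lay near 0. Pla2g1b, the pancreatic phospholipase A2, averaged -0.13 ± 0.26, Sycn, a zymogen granule protein, -0.16 ± 0.34, Zg16, another granule protein, -0.11 ± 0.27, Cuzd1 -0.13 ± 0.26 and the kallikrein Klk1 0.0068 ± 0.25. Rbpjl, the pancreas-specific subunit of PTF1, averaged 0.09 ± 0.30 and Nr5a2, a nuclear receptor of acinar and liver cells, 0.42 ± 0.33 (n = 6 each). Dmbt1 averaged 0.35 ± 0.40, and Erp27, a protein of the endoplasmic reticulum, 0.17 ± 1.21 through embryo 6 at 2.61. In the adults 0 of these 10 genes passed by limma and 0 had an unadjusted p under 0.05, against 0% and 7.75% of features.

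Markers of neighbouring organs were set beside the fetal ratios, and 49% of fetal means over all features lay below 0. Duct markers, some of which bile ducts share, had 4 of 5 fetal means below 0, with a median of -0.36 and list medians in single embryos from -0.79 to 0.42. Islet markers had 2 of 4 below 0 (median -0.02, in single embryos -0.20 to 0.13) and intestinal markers 3 of 5 (median -0.20, in single embryos -0.62 to 0.19). Stomach markers had 2 of 3 below 0 (median -0.07, in single embryos -0.28 to 0.20). Erythroid markers had 3 of 3 below 0 (median -0.23, in single embryos -0.42 to -0.07), and hepatocyte markers 6 of 8 above it (median 0.23, in single embryos 0.06 to 0.49). One gene of each of 4 lists lay below 0 in every embryo, as did 7.5% of features: Atp4a of the stomach (-0.57), Cftr of ducts (-0.42), Chgb of islets (-0.23) and Hba-a1 of erythroid cells (-0.23). Pax6 of islets (0.23) and Alb (0.27) and Serpina1b (0.70) of hepatocytes lay above 0 in every embryo, as did 8.27% of features. With the dye profile subtracted, Atp4a and Hba-a1 lay below 0 in 5 of 6 embryos, Chgb in 4 and Cftr in 3. Pax6 and Trf then lay below 0 in all 6 (15.6% of features), and Cdx1, Lgals4 and Tff2 above it (16.5%). The list medians became -0.21 (duct), -0.01 (islet), -0.08 (intestine), 0.34 (stomach), -0.15 (erythroid) and 0.01 (hepatocyte). The part of these other cell types in the ratios of the pancreatic genes was not tested.

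Several pancreatic genes stood side by side in the platform's numbering, and so did low fetal ratios. Pla2g1b, Zg16 and Cela2a had the consecutive numbers 7269, 7270 and 7271, and Ctrl 7274. Probe 7272, which has no gene symbol, averaged -1.54 ± 0.74 (n = 6) in the embryos, lower than Cela2a beside it, with values of -2.28, -2.27, -0.34, -1.32, -1.26 and -1.78. The unnamed probe 7267 averaged -1.15 ± 0.73 and the unnamed probe 7273 -0.84 ± 0.66, each below 0 in 6 of 6 embryos. With the dye profile subtracted these 3 probes stood at -1.46, -0.69 and -0.996. In the adults they averaged -0.08 ± 0.18, 0.23 ± 1.30 and 0.09 ± 0.40 (n = 6 each). They were singled out after their values were seen. Among the 362 probes within 25 places of one of the 11 probes, 9.94% lay below 0 in every embryo, against 7.60% of all placed probes, and their median fetal mean was -0.04. A fetal mean at or below -1 was found in 2 of the 362 (0.552%), against 0.131% of all placed probes. These 2 are probes 7272 and 7267, already singled out above, so the share adds nothing separate. In the same run the unnamed probe 7263 averaged -0.58 ± 0.49, below 0 in 6 of 6 embryos, and Pla2g1b, Zg16 and Ctrl lay near 0. The part of position in the numbering was not tested.

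**Figure D5:**
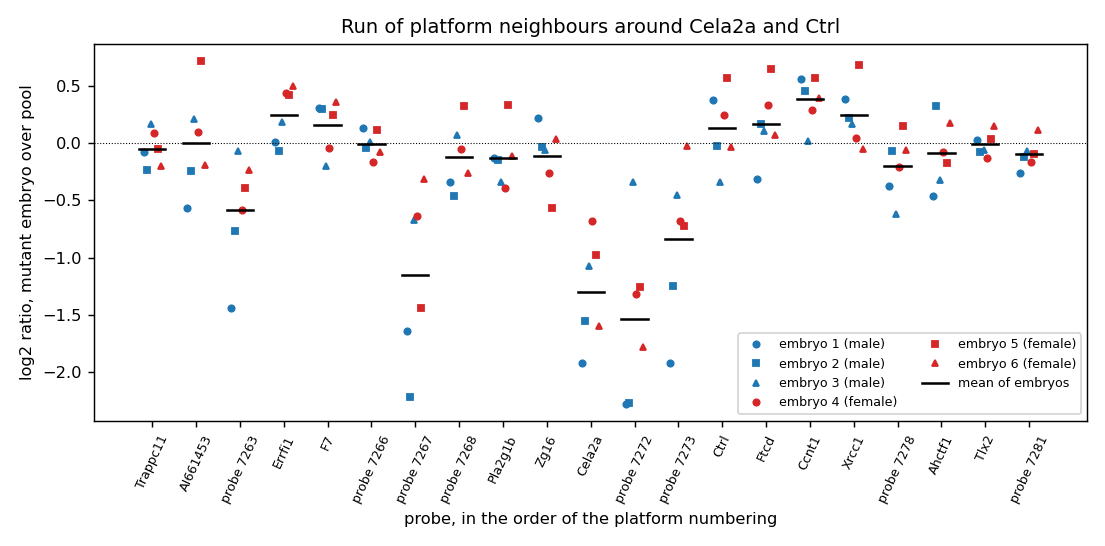
Fetal log2 ratio of mutant over pool for 21 consecutive probes in the platform's numbering around Cela2a and Ctrl, in 6 embryos (blue, male; red, female) with the mean as a black line. Cela2a and the unnamed probes 7267, 7272 and 7273 have means from -1.54 to -0.84, while Pla2g1b, Zg16 and Ctrl lie between -0.13 and 0.13.

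Across the 12 animals, with each age centred on its mean, the median of the 9 genes measured in all animals was lowest in embryo 1, at -0.34, and highest in embryo 3, at 0.15. The genes followed it unevenly, with a Pearson correlation of 0.77 for Ctrb1, 0.63 for Gp2, 0.53 for Cela2a and 0.49 for Cpa1 and of -0.19 for Ctrl and -0.16 for Pnliprp2. Each of these genes is itself part of the median. For Cpa1 the correlation was 0.72 over the 6 embryos and -0.58 over the 6 adults. Among 8291 named genes with a value in all 12 animals, the closest to this median outside the 10 genes were Acads (0.94), Snrpd3 (0.93), Bgn (0.92), Bst2 (0.86) and Derl2 (0.84). As the highest of so many, these correlations are a description and were given no p. The lowest fetal mean of these 5 was that of Acads, at -0.34.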

How the data were processed

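The authors deposited 1 table of log2 ratios of the 2 channels, with 20794 rows and 17 columns. The log base is an inference from the values. Image analysis, background correction and normalization have no description in the sources used here. Per the labels' protocols, RNA was labelled indirectly with Cy3 or Cy5 and mixed with pool cDNA of the other dye. Probes were named through the platform's annotation, and probes of 1 gene were averaged. Fetal values were moved by 11 rows for probes up to 20000. Columns with the mutant in Cy3 were read as ratios of mutant to pool, like the others. Arrays of an animal were averaged, and features needed 4 values. Linear models were fitted over all features in R 4.3.3 with limma 3.58.1 (lmFit, eBayes), with a Benjamini-Hochberg adjusted p under 0.05 as threshold. On simulated data the adult fit recovered 70% of shifts of 1 and 90% of shifts of 2 (17039 features), and the fit of female minus male embryos 26.5% and 70% (17212 features). Nothing says that embryos or adults came from separate litters, and p-values measure the spread between these animals and leave out that of the wild type. The members and lists were chosen with earlier results of these data known, as were the named genes (all 10 members, the other acinar genes with values, and the 5 genes of most similar pattern). The number of arrays limits the precision. The sequences come from RefSeq. Alternatives were the row naming, centring, the dye profile, the sign and choice of orientations, the probe summary, values beyond 10 and leaving out animals.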

Additional observations from a re-analysis of the deposited data

Results flagged for a closer look

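Of 40 sets of values examined (20 acinar genes in the embryos and in the adults), 4 held an animal set off from the rest by more than Dixon's critical value, which chance passes in about 1 of 20 sets. Cela2a in adult animal 6 lay at -0.87, and Pnliprp2 in adult animal 5, measured in Cy5 alone, at 1.30. Gp2 in embryo 2 lay at -0.30, and Erp27 in embryo 6, whose array stood apart in other ways, at 2.61.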

How the results depend on the processing

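The count of 5 genes below 0 in every embryo was 5 or 6 without each embryo in turn, 2 with the rows named as deposited and 3 with the dye profile subtracted. As deposited, Ctrb1 averaged 6.45 ± 9.65 (n = 5, 2 below 0). The other means that changed sign there were Cpa1 0.25, Ctrl -0.58, Pnliprp1 0.43, Pnliprp2 -0.29, Clps -0.0075 and Gp2 -0.31. With the profile subtracted, the means that changed sign were Ctrl -0.43, Pnliprp1 0.09, Pnliprp2 -0.10 and Rnase1 0.00063. The adult count of 0 passing features became 1764 with the Cy3 arrays turned, 1106 with Cy5 arrays alone and 699 with Cy3 arrays alone, and stayed 0 without each animal in turn. Adult means that changed sign, none passing in the unchanged setting, were, with the Cy3 arrays turned, Ctrl 0.61, Cpa1 -0.39, Clps 0.024 and Rnase1 -0.48. With Cy5 arrays alone they were Ctrl 0.32, Cpa1 -0.32 and Rnase1 -0.36. With Cy3 arrays alone they were Cela3b 0.30, Ctrb1 0.11, Pnliprp1 0.52, Pnliprp2 -0.32 and Gp2 0.015. From the animals with both dyes they were Cela3b 0.076 and Pnliprp1 0.091, and after centring Cela3b 0.0073. Leaving out animals in turn gave -0.056 to 0.076 for Cela3b, -0.15 to 0.091 for Pnliprp1 and -0.13 to 0.40 for Rnase1, and a Rnase1 dye profile of -0.88 to 0.023. The 1491 features with a dye profile ranged from 638 without animal 4 to 2407 without animal 1, with 854 and 786 without animals 2 and 3. Between the sexes 2 features passed, 0 without values beyond 10, 0 without embryo 4 or 6, 1 without embryo 1 and 4 without embryo 2, 3 or 5. Differences between the sexes also changed sign, Cpa1 from 0.001 to -0.22 as deposited and to -0.0073 after centring. As deposited, Pnliprp1 went from 0.39 to -0.75 and Gp2 from 0.16 to -0.26. Leaving out embryos in turn gave -0.15 to 0.95 for Ctrb1, -0.26 to 0.35 for Cpa1 and -0.17 to 0.10 for Pnliprp2. The cause was not tested. No paired analysis was possible because adult replicate numbers mark arrays and fetal replicate numbers mark embryos, so that equal numbers share no animal. This applies to adults against embryos only, since the dye profile did pair both arrays of the same adult animal. Signal over background is unknown for ratios, which limits what near-zero values show.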
